A study of Homo sapiens with 20 samples.

Results

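Genes of the Hedgehog signalling pathway were followed through 18 days of neuronal differentiation of H1-derived human neural progenitor cells. The 9 genes were taken by name, namely the ligand SHH, the receptor PTCH1, the signal transducer SMO, the coreceptors GAS1 and BOC, the ligand-binding antagonist HHIP, and the transcription factors GLI1, GLI2 and GLI3. Each was matched to a single coding record among the 20237 coding records and 38369 records in all. The record of GLI2 carries a second spelling of the same symbol and was kept. H1 is an established human embryonic stem cell line, and the progenitors made from it were grown with FGF on Matrigel. At day 0 FGF was withdrawn and BDNF, a neurotrophin, was added, and cells meant for days 5, 11 and 18 were moved at day 4 to a poly-D-lysine and laminin surface. No Hedgehog ligand or agonist is among the medium components that the labels list. The 20 polyadenylated RNA libraries comprise 3 cultures at each of days 0, 1, 2, 4, 11 and 18 and 2 at day 5, all of the same line and with no untreated control followed in parallel. Time in culture, the change of medium and, from day 5, the change of surface cannot be told apart in this design.

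Hedgehog ligands bind PTCH1 on the receiving cell, with the help of the coreceptors BOC, CDON and GAS1. Ligand binding relieves the inhibition that PTCH1 exerts on SMO, which then moves into the primary cilium and shifts the GLI proteins from repressor to activator forms. GLI3 acts mostly as the repressor, GLI2 mostly as the activator, and GLI1, PTCH1 and HHIP are transcribed in response, so that their RNA is widely used as a readout of the pathway. In the developing neural tube a ventral source of SHH sets ventral against dorsal progenitor identity, and later the pathway supports the proliferation of progenitors.

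The values are FPKM (fragments per kilobase of transcript, scaled to all mapped fragments), a scale that corrects for transcript length, with a single value for each gene on each day that the authors computed over that day's cultures. The days are 0, 1, 2 and 4 and, after replating, 5, 11 and 18, and series of 7 values are given in that order. Neither the spread between cultures nor the depth is therefore known here, no test could be made, and no difference below has a replicate check. Changes are given as differences in log2(FPKM + 0.1), which understates those of low genes, beside the same measure for the 11793 coding records whose FPKM averaged at least 1 over the days, called expressed here. Of the 9 members 8 reached that mean, the exception being SHH. The median change of these 11793 records from day 0 to day 18 was -0.60 on the log2 scale, so values are also given relative to that median where it matters. The marker genes showed a progenitor culture in which neuronal RNA became more abundant. NES and SOX2, markers of neural stem cells, had 513 and 126 FPKM at day 0 and 180.4 and 66.1 at day 18. The decrease differed among the 5 stem cell markers examined. NES (-1.51), VIM (-0.98) and SOX2 (-0.94) lay below the median change of all records, and MSI1 (-0.44) and SOX1 (-0.36) above it. The neuronal genes DCX and STMN2 went from 5.46 to 88.0 and from 32.3 to 727. Of 6 astrocyte and oligodendrocyte lineage markers, 4 stayed below 0.5 FPKM on all days. S100B, the 1 that averaged at least 1 FPKM, had 8.68 on day 0, 0.593 on day 2 and 4.25 on day 18. All 6 cell cycle genes examined were at least 2-fold lower at day 18 than at day 0, and their summed level was 666 FPKM on day 0, 324 on day 11 and 139 on day 18. The pluripotency genes POU5F1 and NANOG stayed below 0.5 FPKM, although LIN28A (deposited under its older symbol) and DPPA4 had 32.1 and 9.72 at day 0. Mesenchymal and neural crest RNA was also present early, with COL3A1 at 238 FPKM on day 0 and 30.5 on day 18 and SNAI2 at 13.3 and 0.525. These were the 2 expressed genes of a list of 6 whose summed FPKM was 252 at the start and 31.6 at the end and of which COL1A1 was listed at 0 throughout. The part of such cells in the results below was not tested. In such mixed cultures fewer cells of a type and less RNA per cell cannot be told apart.

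To show the regulatory context of the feedback genes, windows from 250 bases before to 50 bases after annotated starts were searched for GACCACCCA, the consensus bound by GLI proteins, on both strands. RefSeq windows of GRCh38.p14 were used for the search and located in GRCh37, the build of the deposited coordinates, by exact match. They covered 7 of the 9 members with 13 windows, with no window for GLI1 and GLI3. An exact match stood in 1 of the 13, a PTCH1 window, against 83 of all 35116 windows (0.236%). With 1 mismatch allowed, 3 of the 13 windows held a match, all of PTCH1, against 6.7% of all windows. Of these 3 windows 2 overlap each other and hold the same site, which is thus counted in each. The matching PTCH1 window (chr9:98271499-98271798, minus strand) is printed 5′ to 3′ because it holds the consensus, shown in capitals as its reverse complement. The HHIP window (chr4:145567058-145567357, plus strand) is shown beside it as that of the member whose level differed most between days.
PTCH1: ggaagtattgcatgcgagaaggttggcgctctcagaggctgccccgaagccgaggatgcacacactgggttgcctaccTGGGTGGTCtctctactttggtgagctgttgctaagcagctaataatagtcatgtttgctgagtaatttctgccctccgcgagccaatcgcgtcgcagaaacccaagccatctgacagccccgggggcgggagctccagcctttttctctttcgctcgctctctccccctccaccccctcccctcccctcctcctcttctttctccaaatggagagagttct
HHIP: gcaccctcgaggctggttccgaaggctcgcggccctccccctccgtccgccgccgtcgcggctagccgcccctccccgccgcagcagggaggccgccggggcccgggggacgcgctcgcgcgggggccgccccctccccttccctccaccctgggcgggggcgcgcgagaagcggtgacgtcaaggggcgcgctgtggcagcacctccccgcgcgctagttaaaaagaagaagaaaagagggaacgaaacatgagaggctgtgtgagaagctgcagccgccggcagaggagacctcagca

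In GRCh37 the match lies at chr9:98271712-98271720. It begins at -172 relative to a RefSeq start of PTCH1, within an intron of 5 of the 14 isoforms of the deposited PTCH1 record and in no exon of that record or of PTCH1 in the GENCODE annotation. The nearest isoform start in the record is 889 bases away, at position 98270831. The HHIP window holds no match. A match describes the letters of the window only, and no expression value was available for single PTCH1 isoforms.

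**Figure D1:**
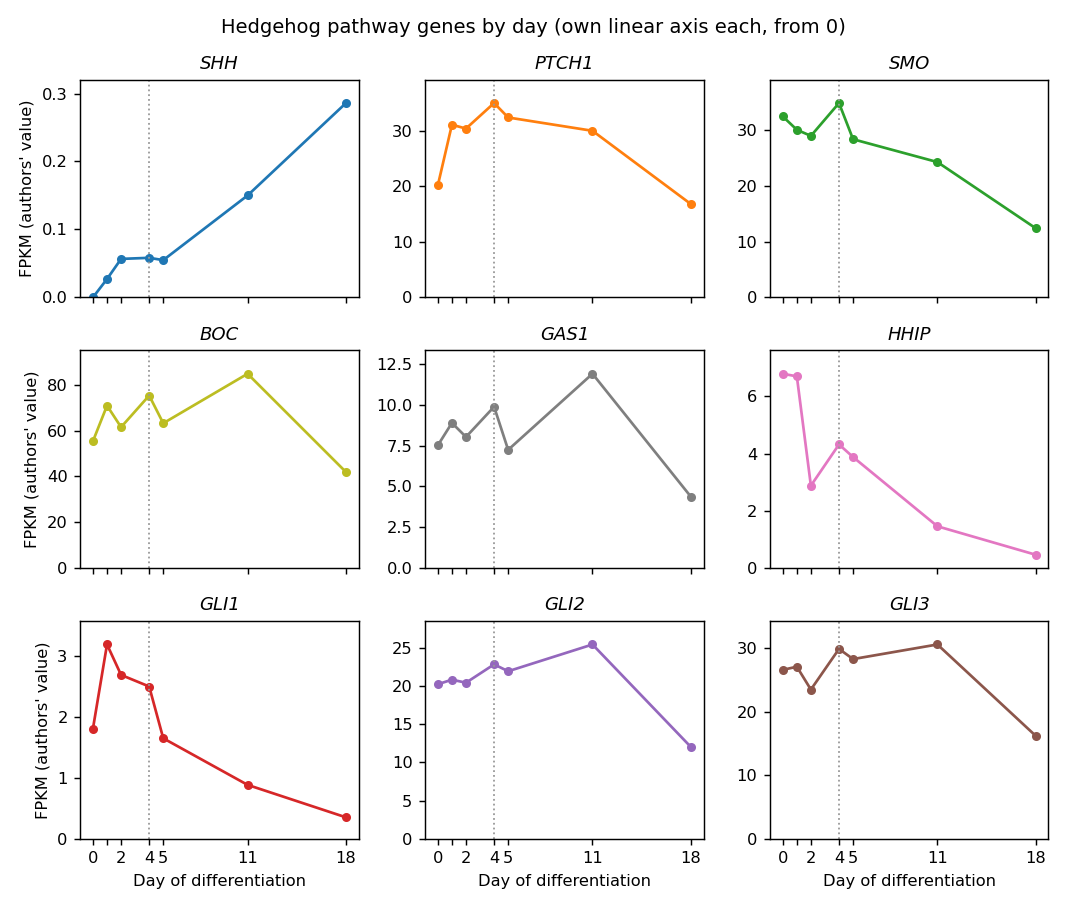
FPKM of the 9 Hedgehog pathway genes (vertical axes, linear, from 0, a separate scale for each gene) against the day of differentiation. Each point is the authors' value for the day with no error available, and the dotted line marks the replating at day 4; PTCH1 was at 20.2 on day 0 and 31.1 on day 1, HHIP went from 6.79 to 0.465, and SHH stayed at or below 0.286.

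All members except SHH were expressed at levels within the range of expressed coding genes, but over very different levels. By mean FPKM over the 7 days, BOC was highest at 64.7, above 93.4% of the 11793 coding records. PTCH1, SMO and GLI3 followed at 28.0, 27.4 and 26.0, and GLI2 had a mean of 20.5. GAS1 had 8.26, HHIP 3.78, GLI1 1.87 and SHH 0.0904. The order of the middle group was not fixed, as SMO led it at day 0 with 32.5 FPKM and PTCH1 at day 18 with 16.8. All members but SHH had their lowest value at day 18. The highest value came on day 11 for BOC, GAS1, GLI2 and GLI3, on day 4 for PTCH1 and SMO, on day 1 for GLI1 and on day 0 for HHIP, as the plot of FPKM by day shows.

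The receptor PTCH1 (chromosome 9, 98205266 to 98279247, minus strand), itself a target of the pathway, was higher on each of the days 1 to 11 than on day 0. Its FPKM was 20.2, 31.1, 30.4, 35.0, 32.4, 30.0 and 16.8 on days 0, 1, 2 and 4 and then 5, 11 and 18. From day 0 to day 1 the log2 change was 0.62, and 9.14% of the expressed coding records had a change at least as far upwards in that step. At day 18 PTCH1 was 0.27 below day 0 on the log2 scale as deposited but 0.33 above it once the median shift was taken off, so that the scaling of the days decides its direction over the whole course.

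SMO (chromosome 7, 128828713 to 128853383, plus strand), the transmembrane protein that PTCH1 inhibits, had 32.5, 30.1, 29.0, 34.9, 28.4, 24.3 and 12.4 FPKM on these 7 days in turn. It thus varied little until day 5 and was lowest at the end. Its change from day 0 to day 18 was -1.39 on the log2 scale, or -0.79 relative to the median, where it is no longer 2-fold. The ratio of PTCH1 to SMO on the same day, which does not depend on how the days were scaled to each other, was 0.622 at day 0 and 1.03 at day 1, and reached 1.35 at day 18.

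The coreceptors BOC and GAS1 ran closely together. BOC (chromosome 3, 112930412 to 113006303, plus strand), an immunoglobulin and fibronectin repeat protein, had 55.4, 70.9, 61.5, 75.3, 63.2, 84.8 and 41.9 FPKM on days 0, 1, 2 and 4 and then 5, 11 and 18. GAS1 (chromosome 9, 89559279 to 89562104, minus strand), a protein anchored in the membrane by a lipid, had 7.52, 8.89, 8.03, 9.88, 7.24, 11.9 and 4.37 FPKM on the same days. Both were higher on days 1, 4 and 11 than on the days just before and after. Their log2 profiles correlated with r = 0.97 over the 7 days, and the ratio of BOC to GAS1 stayed between 7.15 and 9.60. GLI2 and GLI3 were also higher on days 1, 4 and 11 than on the days beside them, so this was not particular to the coreceptors. GLI2 correlated with GAS1 and BOC at 0.94 and 0.92, and GLI3 at 0.91 and 0.90. Over the whole course the log2 difference was -0.77 for GAS1, and for BOC -0.40 as deposited but 0.20 relative to the median, so here too the scaling decides the direction. CDON, the coreceptor most closely related to BOC, did not share this course, with 15.9 and 26.4 FPKM on days 0 and 4 but 10.5 and 4.73 on days 11 and 18. The ratio of BOC to CDON, a pair chosen after its values were seen, was between 2.86 and 3.48 up to day 5 and then 8.08 and 8.86.

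The antagonist HHIP (chromosome 4, 145567173 to 145659881, plus strand), which binds Hedgehog ligands at the cell surface, had the largest decrease of the 9 members. Its FPKM was 6.79, 6.70, 2.88, 4.32, 3.88, 1.46 and 0.465 on these 7 days in turn, or 14.6-fold lower at the end than at the start. The log2 change over the whole course was -3.61 (-3.01 relative to the median), and 0.856% of the expressed coding records were lower by as much or more. The step from day 1 to day 2, at -1.19, fell in an interval where 0.0509% of the records were lower by at least this amount. HHIP was higher again at day 4, with a log2 change of 0.57 from day 2.

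Among the GLI factors, GLI1 had a course of its own. GLI1 (chromosome 12, 57853918 to 57866045, plus strand), the activator that is a transcriptional target of the pathway, had 1.81, 3.19, 2.69, 2.50, 1.65, 0.885 and 0.352 FPKM on days 0, 1, 2 and 4 and then 5, 11 and 18. It was thus 1.77-fold higher at day 1 than at day 0, and each later day was lower than the day before it. In the first step its log2 change was 0.79, and 6.10% of the expressed coding records had one at least as far upwards. The step across the replating, from day 4 to day 5, had a log2 change of -0.57 for GLI1, a decrease matched or exceeded by 1.35% of the records. From its highest to its lowest day GLI1 differed 9.07-fold, and from day 0 to day 18 its log2 change was -2.08 (-1.48 relative to the median).

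GLI2 and GLI3 were the abundant GLI transcripts on all 7 days. GLI2 (chromosome 2, 121493199 to 121750228, plus strand) had 20.2, 20.8, 20.4, 22.8, 21.9, 25.4 and 12.0 FPKM on these 7 days in turn. GLI3 (chromosome 7, 42000550 to 42276618, minus strand) had 26.6, 27.1, 23.5, 29.9, 28.3, 30.6 and 16.2 FPKM on the same days. Their profiles correlated with r = 0.98 over the 7 days, and the ratio of GLI2 to GLI3 stayed between 0.743 and 0.868. The ratio of GLI1 to GLI3, in contrast, was 0.0680 and 0.118 on days 0 and 1 but 0.0289 and 0.0218 on days 11 and 18. Over the whole course the log2 differences of GLI2 and GLI3 were -0.75 and -0.71, near the median of all expressed coding records.

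RNA of the ligands was scarce. SHH (chromosome 7, 155592736 to 155604967, minus strand) was listed at 0 on day 0 and had 0.0270, 0.0566, 0.0582, 0.0548, 0.150 and 0.286 FPKM on the 6 days that followed. Its values were thus highest on the last days, but with no depth known it cannot be said how many fragments they rest on, and a fold against day 0 is not given. The related ligands IHH and DHH had at most 0.0615 and 0.133 FPKM.

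**Figure D2:**
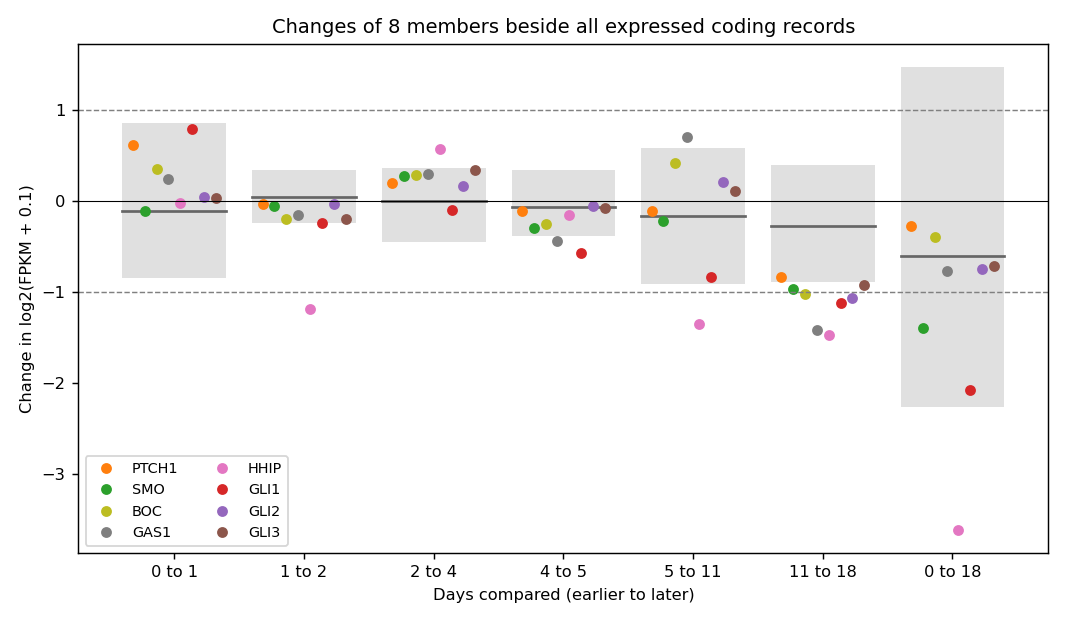
Change in log2(FPKM + 0.1) (vertical axis) between the days named on the horizontal axis for 8 members (coloured points; SHH, with a mean FPKM below 1, is left out). Grey bars span the 5th to 95th percentile of the 11793 expressed coding records and the grey line is their median; dashed lines mark 2-fold. From day 11 to day 18 all 8 points lie below the median, whereas over the whole course PTCH1 and BOC lie above the median although below 0.

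Setting the members beside all expressed coding records shows when they differed from the bulk. From day 0 to day 18, 3 of the 8 expressed members (SMO, GLI1 and HHIP) were at least 2-fold lower and none was higher, while 29.9% of the 11793 coding records were at least 2-fold lower and 7.57% higher. SHH, which was listed at 0 at the start, passed this line upwards at a size that the pseudocount sets. The median change of the 9 members was -0.75, against -0.60 for all expressed coding records. Relative to that median, 12.1% of coding records were at least 2-fold lower and 14.7% higher, and the members past that line were GLI1 and HHIP, both lower, and SHH, higher by 2.55 at a size that the pseudocount again sets. From day 0 to day 1 no member passed 2-fold, with 3.60% of coding records past it upwards and 3.09% downwards. From day 1 to day 2 HHIP alone among the members was at least 2-fold lower, in a step where 0.144% of coding records were and 0.136% were higher. No member passed 2-fold from day 2 to day 4, where 0.127% of coding records were higher and 0.653% lower, or from day 4 to day 5, where 0.254% were higher and 0.0509% lower. All 9 members had a lower value at day 5 than at day 4, as 68.0% of coding records did, with log2 changes of the members between -0.57 and -0.03.

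From day 5 to day 11 HHIP was again at least 2-fold lower (-1.35), against 4.24% of coding records lower and 1.80% higher. With a pseudocount of 1 HHIP did not pass the line in this step or in that from day 1 to day 2. GAS1 and BOC were higher by 0.70 and 0.42 on the log2 scale in that step, increases that 3.75% and 7.22% of the records matched or exceeded.

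The last step, from day 11 to day 18, held the most members past 2-fold. HHIP (-1.47), GAS1 (-1.42), GLI1 (-1.12), GLI2 (-1.07) and BOC (-1.02) were at least 2-fold lower, which makes 5 of the 9 members against 3.72% of coding records, while 0.839% of coding records were higher. SMO (-0.97), GLI3 (-0.92) and PTCH1 (-0.84) were just short of 2-fold, and SHH was the exception, at 0.62. The median of all expressed coding records was itself -0.28 in this step. Relative to it, 2 members (HHIP and GAS1) remained past 2-fold, against 1.41% of coding records. With a pseudocount of 1 the count was also 2, but the members were GAS1 and GLI2, and HHIP, GLI1 and BOC did not pass. All 6 cell cycle genes were at least 2-fold lower in the same step, with a median log2 change of -1.26, and the median over 5 stem cell markers was -0.73. Whether the members followed the share of cycling progenitors was not tested.

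**Figure D3:**
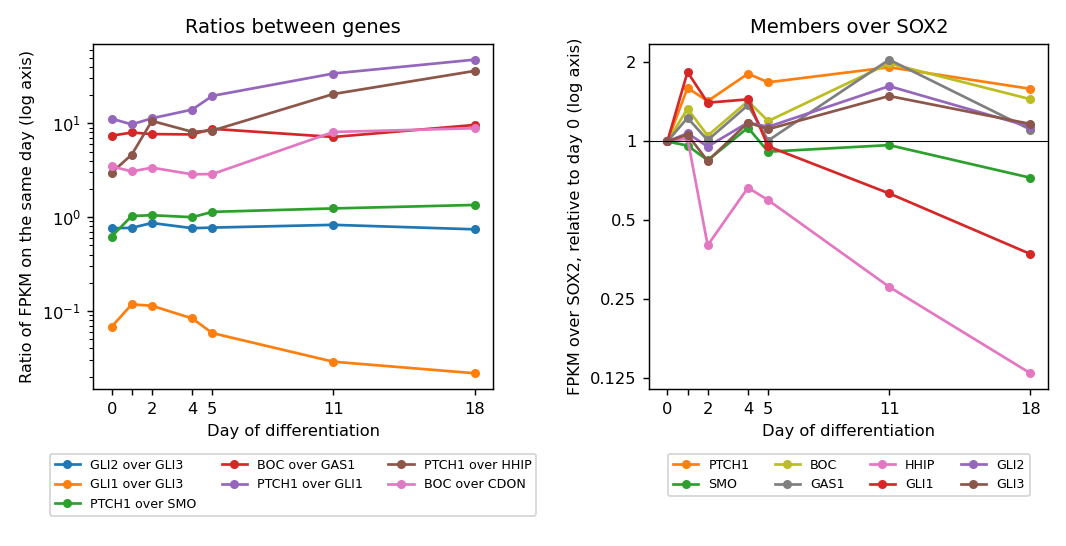
Ratios of FPKM on the same day (left) and FPKM of 8 members over that of SOX2 relative to day 0 (right), both on log axes, against the day of differentiation; each point is a ratio of the authors' values, with no error available. The ratio of PTCH1 to GLI1 was 9.73 at day 1 and 47.6 at day 18, while that of GLI2 to GLI3 stayed between 0.743 and 0.868.

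Ratios within a day were also taken between the readouts of the pathway. The ratio of PTCH1 to GLI1, chosen after the values were seen, was between 9.73 and 14.0 up to day 4, then 19.6, 33.9 and 47.6 on days 5, 11 and 18. That of PTCH1 to HHIP, also chosen afterwards, was 2.98 at day 0 and 36.1 at day 18. GLI1 and HHIP, in contrast, had log2 profiles that correlated with r = 0.90 over the 7 days. This likeness was not particular to the readouts, as SMO correlated with GLI1 at 0.91 and with HHIP at 0.92. Among all expressed coding records, 744 had r of at least 0.95 with GLI1 and 592 with HHIP. Set over SOX2, a transcription factor of neural progenitors, at day 18 and relative to day 0, GLI2, GLI3 and GAS1 were at 1.14, 1.16 and 1.11 times their starting ratio. PTCH1 and BOC were at 1.59 and 1.45 times, SMO at 0.729, GLI1 at 0.373 and HHIP at 0.131 times. At day 11 GLI2, GLI3 and GAS1 were at 1.62, 1.49 and 2.04 times their ratio of day 0, so they did not keep a constant ratio to SOX2. PTCH1 and BOC were then at 1.92 and 1.98 times, SMO at 0.968, GLI1 at 0.635 and HHIP at 0.279 times. These ratios to SOX2 were also computed after the values were seen.

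**Figure D4:**
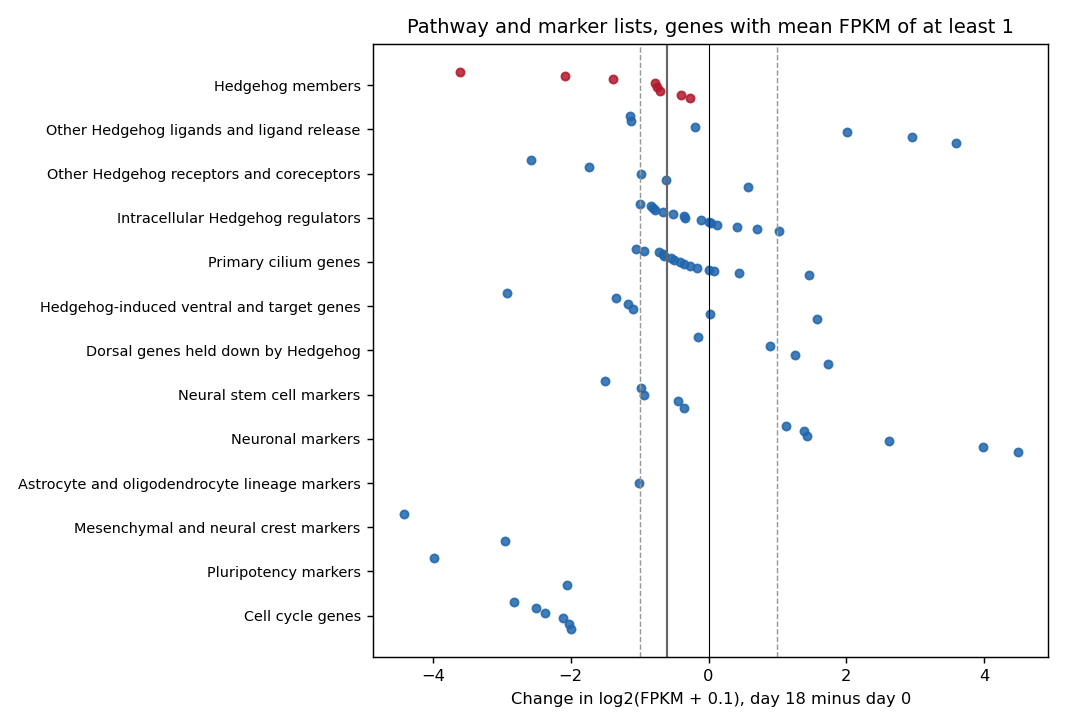
Change in log2(FPKM + 0.1) from day 0 to day 18 (horizontal axis) of the genes averaging at least 1 FPKM in 13 lists, with the 8 expressed Hedgehog members in red. The grey line is the median of the 11793 coding records, -0.60, and dashed lines mark 2-fold; the 6 neuronal markers all lie to the right of 1 and the 6 cell cycle genes all to the left of -1.

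The other genes of the pathway were taken from lists by role, of which 51 records were expressed. Among them 8 were at least 2-fold higher at day 18 than at day 0 and 9 lower, or 13 and 3 relative to the median. Over all expressed coding records the shares were 7.57% higher and 29.9% lower, or 14.7% and 12.1% relative to the median, and the counts by role below are to be read against these. Of the 6 expressed genes for ligands and ligand release, 3 were at least 2-fold higher and 2 lower, or 3 and 0 once recentred, and their median log2 change was 0.91. DISP2, a homologue of the ligand exporter DISP1, went from 0.227 to 3.87 FPKM. The secreted SCUBE1 and SCUBE2 went from 0.350 to 3.38 and from 0.545 to 2.49, whereas their relative SCUBE3 went from 16.3 to 7.34. DISP1 itself had 5.43 FPKM at day 0 and 2.42 at day 18.

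Of the 5 other receptors and coreceptors, 0 were at least 2-fold higher and 2 lower, CDON and the glypican GPC3. The latter binds Hedgehog ligands and went from 13.4 to 2.16 FPKM. Relative to the median of all records, 1 of the 5 was at least 2-fold higher, and CDON and GPC3 were still lower by as much. LRP2, an endocytic receptor for SHH in the forebrain, more than doubled in the first day, from 18.2 to 39.8 FPKM, and had 11.9 at day 18.

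Of 15 expressed records of intracellular regulators, 1 was at least 2-fold higher and none lower, with a median log2 change of -0.34. Relative to the median of all records, 3 were at least 2-fold higher, EFCAB7 (1.62), IQCE (1.31) and BTRC (1.02). SUFU, which binds and restrains GLI proteins, had 6.90 FPKM at day 0 and 7.55 at day 18, and the kinase gene GSK3B 26.9 and 27.1. EFCAB7, a partner of the ciliary EVC complex, was the gene higher on both scales, with 1.69 and 3.53. EVC2 had at most 0.0525 FPKM, although its partner EVC had 3.65 at day 0. Among 15 primary cilium genes, 1 was at least 2-fold higher and 1 lower, with a median of -0.42, and relative to the median of all records 2 were higher, KIF3A (2.06) and IFT172 (1.03), and 0 lower. KIF3A, a motor subunit that also works in neurites, went from 4.32 to 12.1 FPKM, and the record of TULP3, which carries another symbol as well, from 48.9 to 23.6.

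Of 13 ventral and other target genes of the pathway, 7 stayed below 0.5 FPKM on all days. These were the ventral and floor plate factors NKX2-2, NKX2-1, FOXA2, FOXA1, NKX6-1 and OLIG2 and the mesodermal FOXF1, of which NKX6-1 had the highest value, 0.254 at day 11. NKX6-2 was the ventral factor with a mean above 1, at 1.29 FPKM on day 0 and 4.02 on day 18. The proliferation targets were lower at day 18, with FOXM1 going from 51.3 to 6.68, MYCN from 26.0 to 10.2, CCND2 from 35.9 to 16.0 and CCND1 from 75.3 to 35.5. Relative to the median, FOXM1 was the only one of these 4 that was 2-fold lower. BCL2, the remaining expressed target, had 5.45 FPKM at day 0 and 5.52 at day 18. Of the 6 expressed genes of this list, 1 was thus at least 2-fold higher and 4 lower, or 1 and 1 relative to the median. Among 9 genes listed as held down by SHH signalling in the neural tube, plotted under a dorsal label, 4 were expressed. That label does not mean that each gene is confined to dorsal cells. PAX3 had 31.0, 62.3 and 27.9 FPKM on days 0, 11 and 18, and IRX3 10.0, 27.0 and 18.7. PAX6 went from 4.31 to 10.4 and PAX7 from 0.697 to 2.55 between day 0 and day 18. The last pair was at least 2-fold higher at day 18, and none of the 4 was lower by as much. Relative to the median, 3 were at least 2-fold higher, with IRX3 (1.49) added, and 0 lower. Of the genes averaging below 1 FPKM, MSX2 went down from 0.645 to 0.0368 and DBX1 from 0.260 to 0.0534. MSX1, DBX2 and EMX2 stayed below 0.5 FPKM on all days.

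Likeness of course was ranked by Pearson correlation of log2(FPKM + 0.1) over the 7 days among expressed coding records. The 7 points are shared days with a shared scaling, and r is given as a description. For SMO 700 records, for GLI1 744 and for HHIP 592 had r of at least 0.95, whereas there were 90 for PTCH1, 27 for GLI2, 10 for BOC and 5 for GAS1. The records closest to PTCH1 were OS9 (r = 0.998), ALDH4A1 (0.990) and HHAT (0.988), the last being the enzyme that attaches palmitate to Hedgehog ligands. Those closest to GLI2 were PCDH18 (0.990), CHD7 (0.989) and CTBP2 (0.985). GAS1 was closest to LTBP1 (0.983), EXTL2 (0.980) and METRN (0.979), and BOC to DIS3L2 (0.982), METRN (0.974) and SHPRH (0.973). For SMO the leading records were C20orf30 (0.998), PXMP3 (0.997) and TLK1 (0.996), for GLI1 PPIL3 (0.996), CTDSP1 (0.996) and TBL1X with TBL1Y (0.993), and for HHIP C8orf40 (0.993), PIGB (0.991) and TRIT1 (0.991).

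Some members share exon bases with records on the other strand, and no counting by strand is stated for these files, so reads of the partners cannot be told apart. In GAS1 96.6% of exon bases lie in exons of linc-GAS1-AS, a long noncoding record with a mean of 0.869 FPKM. In GLI3 64.6% lie in linc-GLI3-AS, which had at most 0.0794 FPKM, and in HHIP 43.6% lie in linc-HHIP-AS, with a mean of 1.35 FPKM. GLI1 shares 7 bases, or 0.192% of its exon bases, with the record of ARHGAP9. The other 5 members share none.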

How the data were processed

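Polyadenylated RNA of 20 cultures was sequenced in paired ends, and each culture was assigned to its day by its title. According to the methods and the submitters' processing notes, the authors aligned reads to hg19 with TopHat2 at default options, assembled transcripts with Cufflinks and estimated expression with Cuffdiff2. Program versions are not given in the sources used here. The FPKM values deposited by the authors hold 1 value per record and day, and the number of columns for single samples was 0. The deposited table of adjacent-day comparisons also holds fold changes, test statistics and p-values of the authors, which were not used; record names and exon positions were taken from it.

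Levels were compared as log2(FPKM + 0.1) in Python 3.11.15 with pandas 2.3.3. The background was coding records averaging at least 1 FPKM, and a 2-fold difference was the line for counts. With no replicate values, no test, interval or detection limit was computed. Code was tested on simulated data. Members and gene lists were chosen with earlier results of these data known. Named were all 9 members, from each other list up to 4 genes per direction averaging at least 1 FPKM and differing at least 2-fold, and for likeness the 3 closest records per member with a log2 range of at least 1. Genes named outside that rule (among them NES, SOX2, COL3A1, SNAI2, LIN28A, DPPA4, LRP2, SUFU, GSK3B, IQCE, BTRC, IFT172, PAX3 and IRX3) were chosen after their values were seen. The symbols PRKACA and PRKACB fell on the same record, which was counted once. One gene of the receptor list is not reported here by name. Alternatives were 2 other pseudocounts, recentring on the median change, a filter on low means, sums over records and a 1.5-fold line.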

Additional observations from a re-analysis of the deposited data

How the results depend on the processing

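No paired analysis was possible because the files hold a single value per day, and for the same reason no replicate could be left out. Of 153 values recomputed under the alternatives, 129 kept their side of the 2-fold line or stayed within 1.5 times of the count. That number is no measure of robustness, because 25 of the 129 came from sums over records, which could not differ. A further 23 came from the filter on low means, which removed SHH alone and left every value without SHH as it was. A pseudocount of 1 left 0 members at least 2-fold higher from day 0 to day 18 (1 before, SHH), 0 lower from day 1 to day 2, 0 lower from day 5 to day 11 and 2 lower from day 11 to day 18. A pseudocount of 0.01 gave 1 member higher in the step to day 1 and 1 in the step to day 11. Recentring on the median gave 2 members lower from day 11 to day 18, and 13 pathway records higher and 3 lower from day 0 to day 18. Recentring also turned the change of PTCH1 to 0.33 and that of BOC to 0.20. With means of at least 0.1 FPKM only, 0 members were higher over the whole course. A 1.5-fold line gave 6 members lower over the whole course, 2 higher from day 0 to day 1, 2 higher and 2 lower from day 5 to day 11, 1 higher and 8 lower from day 11 to day 18, and 20 pathway records lower. Summing the records of a symbol could change no count, because each symbol summed had 1 coding record. The depth behind the values is unknown, so levels such as those of SHH below 0.3 FPKM have no stated precision.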

Other observations

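Records next to the members were looked at after the members' values were known. The noncoding record linc-INHBE-AS (chromosome 12, 57850097 to 57853248, minus strand) starts 670 bases from the start of GLI1 and is transcribed away from it. It had 0.200 and 0.952 FPKM on days 0 and 1 and 0.0904 and 0.0849 on days 11 and 18, with its highest value on day 1 like GLI1 (r = 0.89 over the 7 days). On the other side of GLI1, the record of ARHGAP9, which also carries the symbol RGL1, had 0.344 and 4.10 FPKM on days 0 and 1 and 0.503 and 0.391 on days 11 and 18 (r = 0.78). At day 1 all 3 records of this stretch of chromosome 12 thus had their highest value of the course. No cause was tested.

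The noncoding record linc-HHIP-AS followed HHIP with r = 0.96 over the 7 days, from 1.90 FPKM at day 0 to 0.458 at day 18, although at day 2, when HHIP had 2.88 after 6.70 at day 1, it had 1.57 after 2.02. These records share exon bases. Next to GAS1, linc-C9orf170-1 (plus strand of chromosome 9, 89562976 to 89629035) begins 872 bases from the GAS1 start and runs the other way. It did not share the day 11 peak of GAS1, with 16.0, 8.08 and 3.32 FPKM on days 0, 11 and 18 (r = 0.62). The record linc-GAS1-AS, which shares exon bases with GAS1, was also highest on day 11, at 1.37 FPKM (r = 0.81).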
